A study of Saccharomyces cerevisiae with 4 samples.

Results

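Starved cells of a yeast strain without PHO23 were compared with growing cells of the same strain across all its measured open reading frames (ORFs). Pho23 is a subunit of Rpd3L, the large histone deacetylase complex of Saccharomyces cerevisiae, and the study asked how it bears on transcription and on how often autophagosomes form. An ORF entered the comparison when its RPKM (reads per kilobase of ORF, scaled to the size of the library, the authors' unit) was at least 10 in at least 1 of the 2 deletion libraries, and 5863 of 6678 ORFs did so. The groups were the starved pho23 deletion, the growing pho23 deletion, starved WT and growing WT, with 1 library of whole-cell total RNA in each. All of them share the background SEY6210, a haploid of mating type MATα that carries leu2-3,112 and ura3-52, the deletions his3-∆200, trp1-∆901 and suc2-∆9, and lys2-801 with GAL. The deletion, pho23∆::HIS5, is a single strain, JMY047. Growing cells were taken at mid-log phase in YPD, a rich medium, and starved cells after 2 h in SD-N, which lacks a nitrogen source. A change that follows from the lack of nitrogen and a change that follows from any other difference between YPD and SD-N cannot be told apart.

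Yeast cells that run out of nitrogen lose the activity of the TORC1 kinase, which in rich medium holds GATA transcription activators such as Gln3 and Gat1 outside the nucleus and keeps ribosome genes active. When TORC1 is off, these factors turn on permeases and enzymes for poor nitrogen sources (nitrogen catabolite repression is lifted), ribosome production is cut back, and autophagy carries cytoplasm to the vacuole, where hydrolases break it down. Rpd3L removes acetyl groups from histones and is brought to promoters by DNA-binding proteins such as Ume6, and it takes part in both repression and activation of genes under stress.

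The values below are RPKM, a level per length, and log2 folds, the difference log2((RPKM + 1)/(RPKM + 1)) of starved over growing cells, so folds of ORFs near 0 are understated. With 1 library per group there is no replicate error and no test: in counts, higher and lower mean by at least 2-fold, a fixed rule of size, and no difference here has a replicate check. RPKM are shares of a library, and a lower share can come from fewer transcripts per cell or from fewer cells that hold them, which these bulk samples cannot tell apart. The summed RPKM was 976219 in the starved deletion, 1097557 in the growing deletion, 883544 in starved WT and 1101484 in growing WT, and a rough estimate of the reads behind them ran from 19600000 to 27500000 per library. PHO23 itself was at 0.0546 RPKM in the starved and 0.13 RPKM in the growing deletion, against 23.4 RPKM in starved and 12.3 RPKM in growing WT, in keeping with the labels. MF(ALPHA)1, the main alpha-factor gene of a MATα cell, had 2493 RPKM in starved and 2001 RPKM in growing deletion cells, a log2 fold of 0.32, the smallest of the 5 alpha-specific genes.

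Short promoter sequences are shown for 7 of the ORFs that the results turn on, each picked as the eligible member of its gene group with the largest fold, higher or lower, whose window of 300 bases before the start codon holds the motif of that group's regulator. Sequences are those of RefSeq R64, the same assembly as sacCer3, 5′ to 3′ on the coding strand, and capitals mark the motif on either strand. GATAAG, or CTTATC on the other strand, is bound by GATA factors and is marked in GAP1 (chrXI:514763-515062, plus strand) and in DAL3 (chrIX:415618-415917, minus strand), where 2 of the copies overlap. AGGGG, or CCCCT, is the stress element of Msn2 and Msn4 and is marked in DDR2 (chrXV:231756-232055, minus strand). GCCGCC, or GGCGGC, is the core of the Ume6 site and is marked in ATG8 (chrII:80732-81031, minus strand), again with overlapping copies. TGACTC, or GAGTCA, is the Gcn4 site and is marked in ARG56 (chrV:295110-295409, plus strand). GATGAG and AAATTTT, with CTCATC and AAAATTT, are the PAC and RRPE elements of ribosome assembly genes and are marked in SNU13 (chrV:101643-101942, plus strand). TGAAACA, or TGTTTCA, is the Ste12 pheromone element and is marked in AGA1 (chrXIV:703399-703698, plus strand).
GAP1: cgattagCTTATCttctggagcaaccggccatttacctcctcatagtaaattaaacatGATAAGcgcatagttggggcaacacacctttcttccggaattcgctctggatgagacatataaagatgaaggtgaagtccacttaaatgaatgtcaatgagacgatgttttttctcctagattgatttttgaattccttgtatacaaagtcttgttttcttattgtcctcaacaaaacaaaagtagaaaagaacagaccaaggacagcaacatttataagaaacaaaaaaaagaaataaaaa
DAL3: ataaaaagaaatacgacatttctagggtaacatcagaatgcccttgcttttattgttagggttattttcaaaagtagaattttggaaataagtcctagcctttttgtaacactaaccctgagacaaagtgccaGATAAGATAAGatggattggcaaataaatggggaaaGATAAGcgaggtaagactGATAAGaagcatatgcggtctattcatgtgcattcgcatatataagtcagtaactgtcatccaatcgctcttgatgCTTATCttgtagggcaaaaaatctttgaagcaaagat
DDR2: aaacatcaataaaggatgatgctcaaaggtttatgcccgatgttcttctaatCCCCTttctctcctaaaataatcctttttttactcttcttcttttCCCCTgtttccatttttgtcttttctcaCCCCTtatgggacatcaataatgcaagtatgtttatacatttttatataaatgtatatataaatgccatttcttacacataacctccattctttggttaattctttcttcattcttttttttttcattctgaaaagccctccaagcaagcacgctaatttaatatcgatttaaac
ATG8: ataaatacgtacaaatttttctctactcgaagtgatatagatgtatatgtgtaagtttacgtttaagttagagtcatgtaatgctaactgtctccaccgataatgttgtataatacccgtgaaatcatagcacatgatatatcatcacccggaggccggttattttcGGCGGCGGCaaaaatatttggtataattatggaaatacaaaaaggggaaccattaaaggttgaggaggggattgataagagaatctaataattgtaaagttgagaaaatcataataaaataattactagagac
ARG56: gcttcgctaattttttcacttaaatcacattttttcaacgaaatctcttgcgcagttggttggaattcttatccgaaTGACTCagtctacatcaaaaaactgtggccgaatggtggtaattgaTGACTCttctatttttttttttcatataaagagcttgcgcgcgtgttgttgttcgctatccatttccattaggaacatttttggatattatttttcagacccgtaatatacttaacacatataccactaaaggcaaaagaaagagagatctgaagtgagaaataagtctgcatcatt
SNU13: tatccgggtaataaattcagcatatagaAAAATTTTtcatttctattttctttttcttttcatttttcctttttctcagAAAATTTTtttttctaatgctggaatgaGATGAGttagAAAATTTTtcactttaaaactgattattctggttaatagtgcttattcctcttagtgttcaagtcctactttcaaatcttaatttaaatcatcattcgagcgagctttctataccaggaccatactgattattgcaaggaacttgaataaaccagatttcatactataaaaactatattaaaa
AGA1: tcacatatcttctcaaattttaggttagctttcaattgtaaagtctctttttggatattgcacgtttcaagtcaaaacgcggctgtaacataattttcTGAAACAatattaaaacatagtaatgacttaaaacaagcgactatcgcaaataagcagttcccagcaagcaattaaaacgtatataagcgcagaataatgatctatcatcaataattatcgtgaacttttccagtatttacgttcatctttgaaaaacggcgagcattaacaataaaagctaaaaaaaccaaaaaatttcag

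Starved deletion cells had 1311 ORFs higher and 514 lower than growing deletion cells, which is 22.4% and 8.77% of the 5863 eligible ORFs. The higher side also reached further: 384 ORFs differed by 4-fold or more on this side and 67 on the lower one, and 76 against 5 did so by 16-fold or more. The median ORF was itself up, at a log2 fold of 0.34, with quartiles of -0.30 and 0.89. Scaling sets this centre. Median-of-ratios scaling moved it by -0.37 and gave 799 higher and 970 lower ORFs, upper-quartile scaling moved it by -0.18 and gave 1030 and 750, and equal RPKM sums moved it by 0.16 and gave 1583 and 365. Medians of gene groups are therefore also given relative to the median of all 6678 ORFs, 0.35. Of the higher ORFs, 382 were under an RPKM of 10 in growing cells, and of the lower ones 26 were under 10 in starved cells. At the limit of 10, just inside lay YGR068W-A (10.01 RPKM starved, 6.44 RPKM growing, log2 fold 0.57), YNL042W-B (10.1 RPKM starved, 1.67 RPKM growing, log2 fold 2.06) and PLS1 (10.1 RPKM starved, 7.39 RPKM growing, log2 fold 0.41), and just outside lay MDS3 (9.95 RPKM starved, 4.72 RPKM growing, log2 fold 0.94), KCC4 (9.97 RPKM starved, 7.58 RPKM growing, log2 fold 0.35) and SPO22 (8.27 RPKM starved, 9.99 RPKM growing, log2 fold -0.24). The plot of all eligible ORFs shows this longer upper arm.

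**Figure D1:**
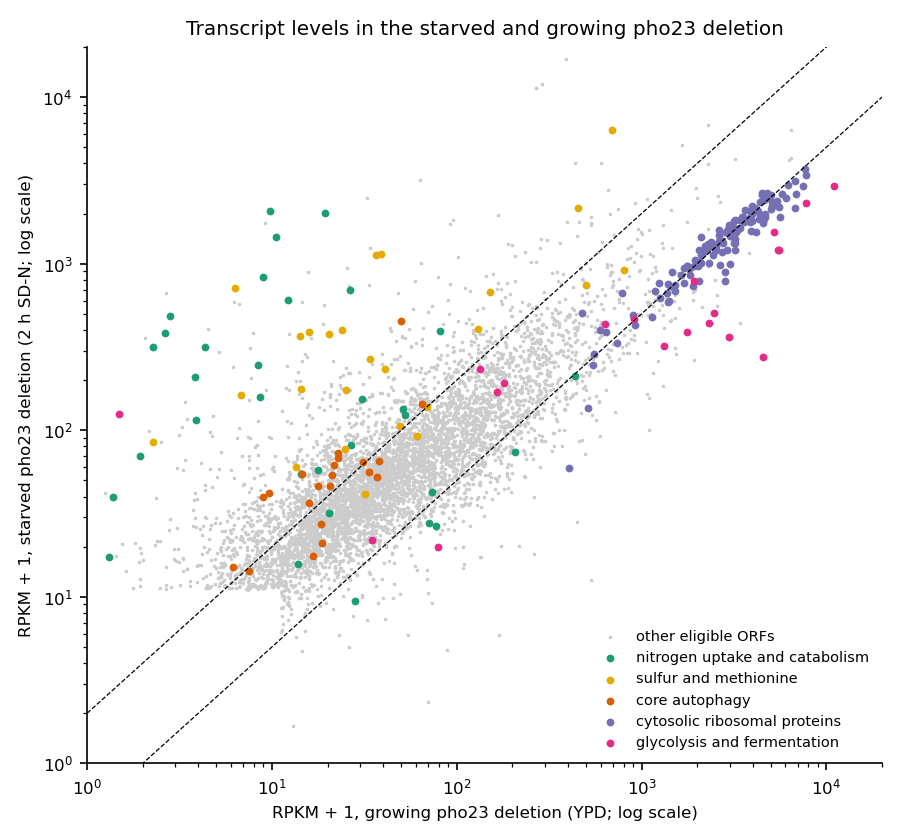
RPKM of each of the 5863 eligible ORFs in starved (vertical, log axis) against growing (horizontal, log axis) pho23 deletion cells, both with 1 added, and with dashed lines at 2-fold. Coloured points are gene groups: nitrogen, sulfur and autophagy genes lie mostly above the upper line, and ribosomal protein and glycolysis genes along or below the lower one.

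Of the 10 largest folds, 7 belonged to genes that take up and use poor nitrogen sources or control them. DAL80, a GATA-type repressor that damps this same programme, had 667 RPKM in starved and 1.68 RPKM in growing deletion cells, a log2 fold of 7.96. GAP1, the general amino acid permease, had 2068 RPKM in starved and 8.77 RPKM in growing deletion cells, a log2 fold of 7.73, a ratio of 236 with a 95% counting interval of 214 to 259.5 that covers counting error only. MEP2, the high-affinity ammonium permease, had 1453 RPKM in starved and 9.50 RPKM in growing deletion cells, a log2 fold of 7.11. All 3 lay under an RPKM of 10 in growing cells. Of 15 ammonium and nitrogen transporters, 11 were higher and 3 lower, with a median log2 fold of 4.20, or 3.85 above the median ORF. Over all 6678 ORFs at any RPKM, 21.6% were higher and 7.97% lower. The transporters for proline (PUT4, 487 RPKM starved, 1.81 RPKM growing, log2 fold 7.44), allantoin (DAL4, 317 RPKM starved, 1.28 RPKM growing, log2 fold 7.13), allantoate (DAL5, 2003 RPKM starved, 18.3 RPKM growing, log2 fold 6.70) and urea (DUR3, 837 RPKM starved, 7.93 RPKM growing, log2 fold 6.55) moved with GAP1. UGA4, the permease for gamma-aminobutyrate, reached a lower level, with 16.4 RPKM in starved and 0.318 RPKM in growing deletion cells, a log2 fold of 3.72 and a ratio of 51.4 with a 95% counting interval of 30.9 to 92.4. The 3 lower members were AGP1, a broad amino acid permease (72.8 RPKM starved, 206 RPKM growing, log2 fold -1.49), the peptide transporter PTR2 (8.46 RPKM starved, 27.1 RPKM growing, log2 fold -1.57) and the low-affinity ammonium permease MEP3 (26.6 RPKM starved, 69.98 RPKM growing, log2 fold -1.36), while MEP1, the third ammonium permease, was higher (80.8 RPKM starved, 25.8 RPKM growing, log2 fold 1.61).

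The amino acid permeases that serve cells in rich medium split. Of 14, 7 were higher and 4 lower. The high-affinity permeases for S-methylmethionine (MMP1, log2 fold 3.24), arginine (CAN1, 2.93) and S-adenosylmethionine (SAM3, 2.46) were higher, as was the methionine permease MUP1 (227 RPKM starved, 70.1 RPKM growing, log2 fold 1.68; its log2 fold in WT was -0.20). On the lower side were TAT1, a permease for tyrosine, valine and tryptophan (17.1 RPKM starved, 260.5 RPKM growing, log2 fold -3.85), TAT2, the tryptophan permease (4.90 RPKM starved, 53.6 RPKM growing, log2 fold -3.21), BAP3, a branched-chain permease (16.3 RPKM starved, 132 RPKM growing, log2 fold -2.94), and the glutamine permease GNP1, at a log2 fold of -2.15. DIP5, which carries glutamate and aspartate, was the most abundant of them after starvation, with 2479.5 RPKM in starved and 31.7 RPKM in growing deletion cells, a log2 fold of 6.25.

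Enzymes that release nitrogen followed the transporters. Of 17 catabolic genes, 13 were higher and 2 lower, with a median log2 fold of 2.33. The allantoin genes lie side by side on chromosome IX, from 406260 to 415617 in R64, and all 6 ORFs of this 9.358-kb stretch were higher. DAL3, which cleaves ureidoglycolate, had 383 RPKM in starved and 1.63 RPKM in growing deletion cells, a log2 fold of 7.19. DAL7, a malate synthase that handles its product glyoxylate, had 605 RPKM in starved and 11.2 RPKM in growing deletion cells, a log2 fold of 5.63. DAL1, the allantoinase (38.7 RPKM starved, 0.383 RPKM growing, log2 fold 4.84), DAL2, the allantoicase (114 RPKM starved, 2.86 RPKM growing, log2 fold 4.89), and DCG1, of unknown function (209 RPKM starved, 2.82 RPKM growing, log2 fold 5.78), completed the stretch with DAL4. Urea amidolyase, DUR12, was less changed (53.9 RPKM starved, 13.4 RPKM growing, log2 fold 1.93). Proline oxidase, PUT1, had 316 RPKM in starved and 3.37 RPKM in growing deletion cells, a log2 fold of 6.18, and the next enzyme of that route, PUT2, 153 RPKM in starved and 29.7 RPKM in growing deletion cells, a log2 fold of 2.33. GDH2, the glutamate dehydrogenase that frees ammonium, had 692 RPKM in starved and 25.4 RPKM in growing deletion cells, a log2 fold of 4.72. Arginase, CAR1, was lower in the starved cells (212 RPKM starved, 433 RPKM growing, log2 fold -1.03), and so was the Ehrlich-pathway decarboxylase ARO10 (25.4 RPKM starved, 76.6 RPKM growing, log2 fold -1.55). Of the 4 ammonium assimilation genes, GDH3 (44.7 RPKM starved, 3.74 RPKM growing, log2 fold 3.27) and the glutamate synthase GLT1 (81.1 RPKM starved, 19.04 RPKM growing, log2 fold 2.03) were higher, while glutamine synthetase GLN1 and GDH1 had log2 folds of 0.54 and 0.39.

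The regulators of this programme were higher too. Of 15 nitrogen regulators, 10 were higher and 0 lower, with a median log2 fold of 1.69. GAT1, a GATA activator, had 219 RPKM in starved and 25.5 RPKM in growing deletion cells, a log2 fold of 3.05, more than its partner GLN3 (66.5 RPKM starved, 18.1 RPKM growing, log2 fold 1.82). GZF3, a second GATA repressor, had 82.8 RPKM in starved and 27.9 RPKM in growing deletion cells, a log2 fold of 1.54, well under the fold of DAL80. NPR1, the kinase that stabilises nitrogen permeases at the surface, had a log2 fold of 2.01. URE2, which holds Gln3 in the cytoplasm, stayed under the 2-fold size, at 0.41, and so did the amino acid sensor SSY1, at -0.03.

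GATAAG, searched on both strands, lay in the 300-base window of 14.7% of 5977 ORFs in the annotation. It lay in 25.2% of the windows of higher ORFs, in 10.8% of those of lower ORFs and in 11.9% of those of eligible ORFs under 2-fold, and in 7 of 15 transporter and 8 of 17 catabolism windows. The share of eligible ORFs that were higher went with the number of copies: 19.6% of 4618 ORFs without a copy, 35.1% of 718 with 1 copy and 57.1% of 70 with 2 copies, with median log2 folds of 0.30, 0.60 and 1.27. Another 13 eligible ORFs had 3 or more copies and were all higher, with a median of 3.18, but so few ORFs give no firm end to the trend. They were DAL80, DAL3, DAL7, MOH1, GUD1, GDH3, ATG32, GAT1, CAN1, UBI4, GZF3, AIM6 and SPO14. Among them GUD1, a guanine deaminase, had 172 RPKM in starved and 8.29 RPKM in growing deletion cells, a log2 fold of 4.22, and UBI4, the polyubiquitin gene, had 782 RPKM in starved and 205 RPKM in growing deletion cells, a log2 fold of 1.93. An ORF under the RPKM limit in growing cells was eligible only if it rose to the limit in starved cells. In all, 550 ORFs were eligible through the starved library only, and 70 through the growing one only. DAL80, DAL3, GDH3, SPO14, GUD1 and ATG32 were under the limit in growing cells. All 13 windows with 3 or more copies were eligible, but only 70 of 85 with 2 copies. The shares by copy number were not counted without the limit. Neighbouring ORFs that point away from each other share parts of their windows, and a match is a match of letters, not a bound site.

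**Figure D2:**
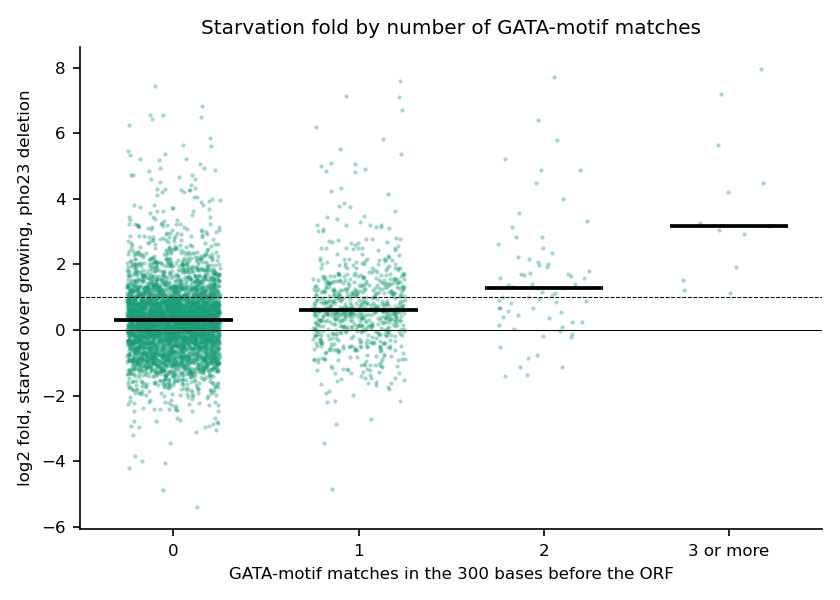
Log2 fold of eligible ORFs, starved over growing pho23 deletion (vertical), by number of GATAAG matches on either strand in the 300 bases before the ORF (horizontal), with 1 point per ORF, bars at medians and a dashed line at 2-fold. The median is 0.30 with no copy, 0.60 with 1, 1.27 with 2 and 3.18 for the 13 ORFs with 3 or more.

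Autophagy genes were higher in starved cells of the deletion. Of 23 core autophagy genes, 14 were higher and 0 lower, with a median log2 fold of 1.17, or 0.83 above the median ORF, and 21 of the 23 reached an RPKM of 10 in 1 of the deletion libraries. Median-of-ratios scaling left 8 higher and made 1 lower, and upper-quartile scaling left 11 higher. ATG8, the ubiquitin-like protein that is joined to phosphatidylethanolamine on the growing autophagosome, was by far the most abundant, with 453 RPKM in starved and 48.8 RPKM in growing deletion cells, a log2 fold of 3.19 and a ratio of 9.30 with a 95% counting interval of 8.45 to 10.3. ATG1, the kinase that starts the process, had 38.6 RPKM in starved and 7.92 RPKM in growing deletion cells, a log2 fold of 2.15. ATG9, a membrane protein carried by the vesicles from which autophagosomes start, had 41.02 RPKM in starved and 8.59 RPKM in growing deletion cells, a log2 fold of 2.13. In the initiation group, 3 of 5 were higher, with ATG29 (72.4 RPKM starved, 21.8 RPKM growing, log2 fold 1.69) and ATG31 (67.5 RPKM starved, 21.7 RPKM growing, log2 fold 1.60), both scaffold partners of Atg17, beside ATG1, and ATG13 under 2-fold (55.3 RPKM starved, 32.5 RPKM growing, log2 fold 0.75). Of the 8 genes for membrane supply and the lipid kinase, 5 were higher, among them ATG38 (60.6 RPKM starved, 20.8 RPKM growing, log2 fold 1.50), while VPS30, VPS15 and ATG18 had log2 folds of 0.18, 0.41 and 0.08. Of the 8 conjugation genes, 4 were higher, among them ATG4 (45.4 RPKM starved, 16.8 RPKM growing, log2 fold 1.38), the protease that trims Atg8. ATG10, an enzyme that joins Atg12 to Atg5, was the one core gene with a fold below 0, at low levels (3.34 RPKM starved, 6.71 RPKM growing, log2 fold -0.83). ATG15, the lipase that opens the autophagic body in the vacuole, had 53.4 RPKM in starved and 13.6 RPKM in growing deletion cells, a log2 fold of 1.90.

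Genes of selective autophagy were higher as well. Of 15, 10 were higher and 0 lower, with a median log2 fold of 1.31. Median-of-ratios scaling left 7 higher, with a median of 0.95, and upper-quartile scaling left 9. ATG39, the receptor for the nuclear envelope and perinuclear endoplasmic reticulum, had 104 RPKM in starved and 2.26 RPKM in growing deletion cells, a log2 fold of 5.01. ATG32, the receptor for mitochondria, whose window is among those with 3 or more GATAAG copies, had 88.4 RPKM in starved and 8.84 RPKM in growing deletion cells, a log2 fold of 3.18. ATG41, which acts with Atg9, reached a higher level than either, with 757 RPKM in starved and 91.1 RPKM in growing deletion cells, a log2 fold of 3.04. The receptor of the Cvt pathway, ATG19 (166 RPKM starved, 52.3 RPKM growing, log2 fold 1.65), the shared scaffold ATG11 (32.6 RPKM starved, 12.6 RPKM growing, log2 fold 1.31) and the reticulum receptor ATG40 (57.2 RPKM starved, 23.4 RPKM growing, log2 fold 1.26) also passed 2-fold. ATG36, the peroxisome receptor, stayed under it (62.7 RPKM starved, 35.6 RPKM growing, log2 fold 0.80).

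What autophagy delivers is broken down by vacuolar hydrolases, of which 11 of 13 were higher and 0 lower, with a median log2 fold of 1.64. The count higher was 8 with median-of-ratios scaling and 10 with upper-quartile scaling. PRB1, the vacuolar serine protease B, had 736 RPKM in starved and 25.1 RPKM in growing deletion cells, a log2 fold of 4.82. CPS1, a carboxypeptidase, had 741 RPKM in starved and 32.5 RPKM in growing deletion cells, a log2 fold of 4.47. APE1, the aminopeptidase carried by the Cvt pathway, had 409 RPKM in starved and 42.3 RPKM in growing deletion cells, a log2 fold of 3.24, and AMS1, the mannosidase carried with it, a log2 fold of 2.34. PEP4, the protease that activates the others, was abundant in both states and stayed under 2-fold (498 RPKM starved, 286 RPKM growing, log2 fold 0.80). The vacuolar proton pump did not move with the hydrolases: 1 of 15 subunits, VMA1, was higher (285 RPKM starved, 115 RPKM growing, log2 fold 1.30), 0 were lower, and the list's median of 0.27 (-0.11 with median-of-ratios scaling) lay close to that of all ORFs.

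Few genes of Rpd3L itself were called. Of 14, PHO23 included, 1 was higher and 0 lower, with a median of 0.25 (-0.11 under median-of-ratios scaling), below that of all ORFs. The higher one, which fell under 2-fold with median-of-ratios or upper-quartile scaling, was ASH1, the repressor of mating-type switching in daughter cells, with 135 RPKM in starved and 62.1 RPKM in growing deletion cells, a log2 fold of 1.11, against 61.4 RPKM in starved and 55.7 RPKM in growing WT cells, a log2 fold of 0.14. UME6, the repressor of early meiotic genes and of ATG8, had a log2 fold of 0.06, and RPD3, the deacetylase, of 0.09. Of 12 regulators of autophagy genes, 2 were higher (4 with equal sums), MSN4 (79.1 RPKM starved, 18.7 RPKM growing, log2 fold 2.02) and INO4 (147 RPKM starved, 46.5 RPKM growing, log2 fold 1.64), and 0 lower.

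**Figure D3:**
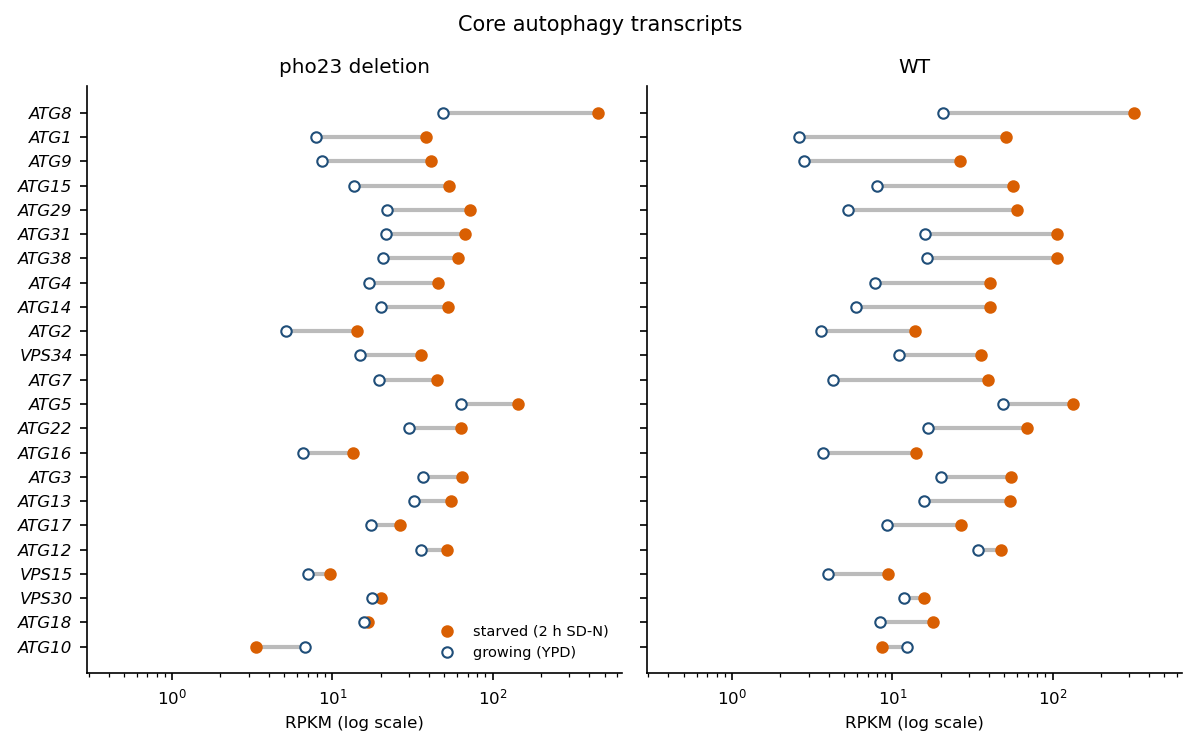
RPKM (horizontal, log axis) of the 23 core autophagy genes (rows, by fold in the deletion), with filled points for starved and open points for growing cells, in the pho23 deletion at left and WT at right. ATG10 is the one gene of the deletion panel whose filled point lies left of its open one, and the growing points of WT lie left of those of the deletion for 22 of 23 genes.

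Deletion and WT folds come from separate libraries, and each genotype has 1 library per state, so their difference was not tested. The deletion's fold was below that of WT in 22 of the 23 core autophagy genes and in 15 of 15 selective ones. With all 4 libraries scaled by median of ratios the counts were 22 and 12, and with equal sums 23 and 15. Such a count was not made over all ORFs, so whether these shares exceed that of all ORFs cannot be said. The median fold of all ORFs was also lower in the deletion, at 0.35 against 0.52 in WT. As deposited, the deletion's fold was likewise below that of WT in 42 of 44 respiration genes and 28 of 32 stress genes. It was below in 0 of 137 cytosolic ribosomal protein genes. ATG8 had a log2 fold of 3.19 in the deletion and 3.90 in WT, ATG1 2.15 and 3.85, and ATG29 1.69 and 3.27. The growing levels differed more than the starved ones. In growing cells 22 of the 23 core genes had a higher RPKM in the deletion than in WT, in starved cells 13 of 23. The median RPKM of all ORFs was 33.3 in the growing deletion and 29.9 in growing WT. In starved cells it was 44.6 in the deletion and 45.7 in WT. Growing deletion cells were also above WT in 13 of 13 vacuolar hydrolases and 25 of 33 proteasome genes, but in 9 of 91 ribosome biogenesis genes. ATG1 was at 38.6 RPKM in the starved deletion and 51.3 RPKM in starved WT, and at 7.92 RPKM in the growing deletion against 2.62 RPKM in growing WT. In WT, 20 of the 23 core genes were higher and 0 lower, where 31.5% of all ORFs at any RPKM were higher and 12.2% lower.

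As deposited, about as many amino acid synthesis genes were higher as were not, and most sulfur genes were. Of 57 amino acid biosynthesis genes, 29 were higher and 1 lower, with a median log2 fold of 1.02. Median-of-ratios scaling left 22 higher, with a median of 0.64, and upper-quartile scaling 23, with a median of 0.83. All 9 arginine genes were higher, with a median of 2.16. ARG56, which makes 2 enzymes of the route from glutamate to ornithine, had 668 RPKM in starved and 47.2 RPKM in growing deletion cells, a log2 fold of 3.79. ARG3, the ornithine transcarbamylase, had 786 RPKM in starved and 58.4 RPKM in growing deletion cells, a log2 fold of 3.73, and ARG1, the argininosuccinate synthetase, had 4009 RPKM in starved and 599 RPKM in growing deletion cells, a log2 fold of 2.74, one of the highest levels in starved cells. The other routes were mixed, with 6 of 10 branched-chain genes, 6 of 12 aromatic, 3 of 5 histidine, 2 of 7 lysine and 3 of 14 serine, threonine, proline and asparagine genes higher. LEU1, of leucine synthesis, had 4007 RPKM in starved and 434 RPKM in growing deletion cells, a log2 fold of 3.20, and HIS4, of histidine synthesis, 875 RPKM in starved and 328 RPKM in growing deletion cells, a log2 fold of 1.41. The lower gene was SER2, of serine synthesis (78.7 RPKM starved, 258 RPKM growing, log2 fold -1.70). Both LYS20, the homocitrate synthase (207 RPKM starved, 239.5 RPKM growing, log2 fold -0.21), and the asparagine synthetase ASN2 (318 RPKM starved, 413 RPKM growing, log2 fold -0.37) had folds a little below 0. TGACTC, the Gcn4 site, lay in 38 of the 57 windows, against 7.76% of all windows, and GCN4 itself, whose control is mainly at translation, had a log2 fold of 0.65.

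Of 25 sulfur and methionine genes, 21 were higher and 0 lower, with a median log2 fold of 2.80, or 2.45 above the median ORF. They span the route of sulfate from the medium to methionine. The sulfate permeases were SUL1, with 709 RPKM in starved and 5.30 RPKM in growing deletion cells, a log2 fold of 6.82, and SUL2, with a log2 fold of 4.60. The activation and reduction steps followed: ATP sulfurylase MET3 at 4.60, the kinase MET14 at 4.87, the reductase MET16 (1131 RPKM starved, 35.7 RPKM growing, log2 fold 4.95) and the sulfite reductase subunit MET5 at 4.71. MET17, which fixes the sulfide, was among the most abundant ORFs of starved cells, with 6342 RPKM in starved and 688 RPKM in growing deletion cells, a log2 fold of 3.20. MET6, the methionine synthase, had 2167 RPKM in starved and 450.0 RPKM in growing deletion cells, a log2 fold of 2.27. MET28, a cofactor of the activator Met4, had the larger fold of the pair (5.22, against 1.10 for MET4). In WT, 19 of the 25 were higher, and the deletion's fold was below that of WT in 15 and above it in 10, or in 11 and 14 with median-of-ratios scaling.

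Purine synthesis went the other way. Of 11 genes, 6 were lower and 1 higher, with a median log2 fold of -1.03. ADE13, the adenylosuccinate lyase, had 287 RPKM in starved and 1527 RPKM in growing deletion cells, a log2 fold of -2.41. ADE1, ADE17 and ADE2 had log2 folds of -1.70, -1.68 and -1.55, and ADE3, an enzyme of folate-bound one-carbon units, was the higher one, at 1.01, but under 2-fold with a pseudocount of 5 and with median-of-ratios or upper-quartile scaling. In WT 2 of the 11 were lower and the median was -0.12. The deletion's fold lay below that of WT in 11 of 11 genes, and in 10 of 11 with median-of-ratios scaling. The median fold of all ORFs was also lower in the deletion, at 0.35 against 0.52 in WT. The difference in the purine genes was not tested.

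Genes of the ribosome had folds of nearly uniform size, below 0 in 136 of 137. Of the 137 genes for proteins of the cytosolic ribosome, 77 were lower and 0 higher, with a median log2 fold of -1.02 and quartiles of -1.19 and -0.89, so that many members lie close to the 2-fold size. The count was 133 with median-of-ratios scaling, 119 with upper-quartile scaling and 37 with equal sums. Together these genes made up 20.7% of the summed RPKM in the starved and 38.6% in the growing deletion, against 8.40% in starved and 39.4% in growing WT. RPS22B, of the small subunit, had the lowest fold, with 58.7 RPKM in starved and 403 RPKM in growing deletion cells, a log2 fold of -2.76, followed by RPS9A at -1.92 and RPL9A at -1.84. RPS3 was nearer to the middle, with 2489 RPKM in starved and 4751 RPKM in growing deletion cells, a log2 fold of -0.93, against 621 RPKM in starved and 5196 RPKM in growing WT cells, a log2 fold of -3.06. For these genes the genotypes parted in the starved cells, where 137 of 137 had a higher RPKM in the deletion than in WT, against 48 of 137 in growing cells. These levels were not counted over all ORFs. In starved cells the median RPKM of all ORFs was 44.6 in the deletion and 45.7 in WT, and in growing cells 33.3 and 29.9. The deletion's fold was nearer 0 than that of WT in 137 of 137 genes, under the deposited values, median-of-ratios scaling and equal sums alike. In WT all 137 were lower, with a median of -2.51. Most of these proteins are encoded by near-identical gene pairs, between which the authors' counting may split reads in an unknown way, so single members are uncertain.

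**Figure D4:**
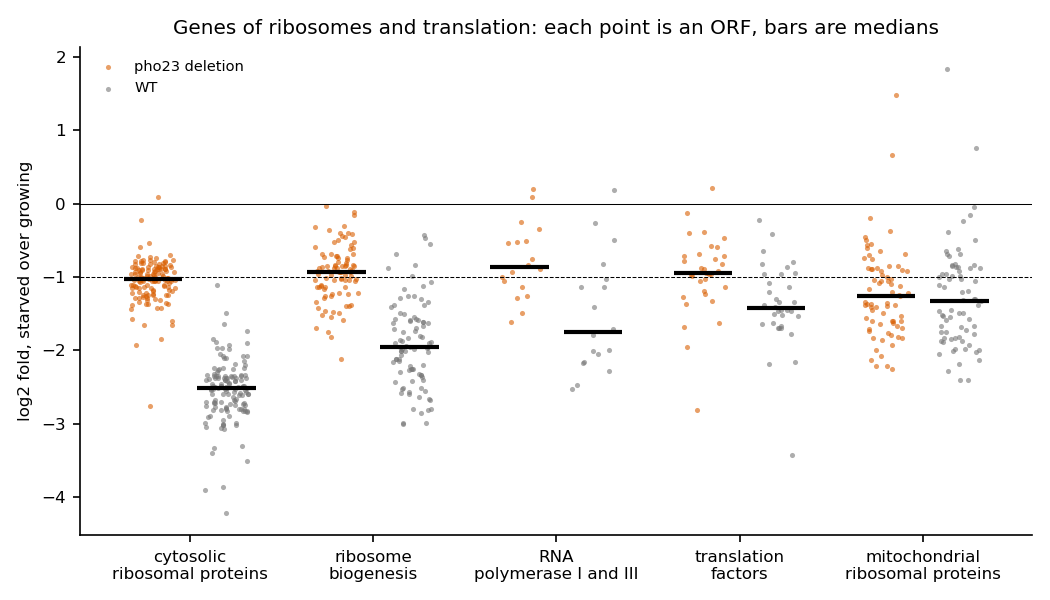
Log2 fold, starved over growing cells (vertical), of genes of ribosomes and translation (5 groups along the horizontal axis), with 1 point per ORF, bars at medians and the pho23 deletion left of WT. The cytosolic ribosomal proteins centre on -1.02 in the deletion and on -2.51 in WT, while the mitochondrial ones centre on -1.25 in the deletion and -1.33 in WT.

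Ribosome assembly genes were lower too. Of 91 biogenesis genes, 38 were lower and 0 higher, with a median of -0.93, and in WT 84 were lower, with a median of -1.96. Scaling moved the count to 73 (median of ratios), 62 (upper quartile) or 23 (equal sums). The deletion's fold lay above that of WT in 89 of 91, under each of the scalings tried for the 4 libraries. SNU13, a protein of both box C/D RNA particles and the spliceosome, had 123 RPKM in starved and 538 RPKM in growing deletion cells, a log2 fold of -2.12. NOP1, the RNA methylase of the same particles, had 159 RPKM in starved and 563 RPKM in growing deletion cells, a log2 fold of -1.82, and its partners NOP56 and NOP58 had log2 folds of -1.75 and -1.69. Of the 16 RNA helicases of assembly, 2 were lower, while HAS1, a helicase needed for both subunits, was under 2-fold (117 RPKM starved, 223 RPKM growing, log2 fold -0.92). Of 18 subunits and factors of RNA polymerases I and III, 6 were lower (11 with median-of-ratios scaling) and 0 higher, led by RPA43 at -1.61 and RPC17 at -1.49. RRN3, which recruits polymerase I, had a log2 fold of 0.21. Of the motifs shown for SNU13, GATGAG lay in 82 of 91 biogenesis windows and in 16 of 18 polymerase windows, against 19.0% of all, and AAATTTT in 86 of 91, against 24.4% of all. Of 34 translation factors, 12 were lower (27 with median-of-ratios and 22 with upper-quartile scaling) and 0 higher. TEF4, a subunit of elongation factor 1, had 155 RPKM in starved and 1095 RPKM in growing deletion cells, a log2 fold of -2.82, whereas TEF1, an abundant GTPase gene nearly identical to TEF2, was under 2-fold (4204 RPKM starved, 6304 RPKM growing, log2 fold -0.58).

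Mitochondrial ribosomal protein genes were lower in both genotypes. Of 73, 49 were lower and 1 higher in the deletion, with a median of -1.25, and 48 lower and 1 higher in WT, with a median of -1.33. The deletion's fold lay above that of WT in 41 and below it in 32, but in 64 and 9 with median-of-ratios scaling and in 22 and 51 with equal sums, so the order of the genotypes here depends on the scaling. MRPL19 and RSM26 had the lowest folds in the deletion, at -2.25 and -2.22. Among the regulators of ribosome genes, 1 of 11 was higher, the kinase SCH9 (60.98 RPKM starved, 27.2 RPKM growing, log2 fold 1.13), and 0 lower, but with median-of-ratios scaling 0 were higher and 1 lower, and with upper-quartile scaling 0 either way.

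General stress genes were higher. Of 32, 23 were higher and 1 lower, with a median log2 fold of 1.48. HSP12, a small membrane-protecting protein, had 3172 RPKM in starved and 62.4 RPKM in growing deletion cells, a log2 fold of 5.64. DDR2, of unknown function, had 294 RPKM in starved and 4.15 RPKM in growing deletion cells, a log2 fold of 5.84. SNZ1, of vitamin B6 synthesis, had 431 RPKM in starved and 17.97 RPKM in growing deletion cells, a log2 fold of 4.51, against 1545 RPKM in starved and 15.2 RPKM in growing WT cells, a log2 fold of 6.58. HSP104, the disaggregase, was at a log2 fold of 2.34 and catalase T, CTT1, at 3.17. The lower one was YGP1, a secreted glycoprotein (90.1 RPKM starved, 182 RPKM growing, log2 fold -1.01), which had a log2 fold of 0.89 in WT. AGGGG lay in 23 of the 32 windows, against 22.2% of all, and in 10 of the 16 windows of the trehalose and glycogen genes. Of those 16 genes, 11 were higher (7 with median-of-ratios scaling) and 0 lower, led by glycogen phosphorylase GPH1 (40.9 RPKM starved, 2.82 RPKM growing, log2 fold 3.46) and with GSY1, a glycogen synthase, at 2.40 and TSL1, of the trehalose synthase complex, at 2.33.

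Both media are commonly made with glucose, and genes of its fermentation were lower in starved cells. Of 20 glycolysis and fermentation genes, 13 were lower and 1 higher, with a median log2 fold of -1.84, or -2.18 against the median ORF. ADH1, the main alcohol dehydrogenase, had 274 RPKM in starved and 4536 RPKM in growing deletion cells, a log2 fold of -4.04. ENO2, enolase, had 361 RPKM in starved and 2990.2 RPKM in growing deletion cells, a log2 fold of -3.05. FBA1, aldolase, was the most abundant of them in growing cells, with 2921 RPKM in starved and 11056 RPKM in growing deletion cells, a log2 fold of -1.92. PDC1, PGK1 and TDH2 had log2 folds of -2.39, -2.28 and -2.19. The higher one was PDC6, a minor pyruvate decarboxylase, with 124 RPKM in starved and 0.495 RPKM in growing deletion cells, a log2 fold of 6.39. In WT the median was -1.29, with 14 lower and 2 higher. ADH2, the isozyme that consumes ethanol, was also lower (71.1 RPKM starved, 494 RPKM growing, log2 fold -2.78), but 10 of the 15 genes of the glyoxylate cycle and gluconeogenesis were higher, among them MLS1, malate synthase (46.2 RPKM starved, 3.37 RPKM growing, log2 fold 3.43), and PCK1, of gluconeogenesis (13.3 RPKM starved, 0.622 RPKM growing, log2 fold 3.15). Of 16 peroxisomal fatty acid oxidation genes, 11 were higher and 0 lower, with POT1, the thiolase, at 2.52. Of 44 respiration genes (TCA cycle and electron transport), 6 were higher (3 with median-of-ratios scaling) and 1 lower, with a median of 0.35 (-0.035 with that scaling), equal to that of all ORFs. COX5B, the isoform of cytochrome oxidase subunit 5 made at low oxygen, was higher (463 RPKM starved, 115 RPKM growing, log2 fold 2.00), and CYC1, cytochrome c, lower (229 RPKM starved, 607 RPKM growing, log2 fold -1.40). Of 15 hexose transporters, sensors and their regulators, 3 were higher (2 with median-of-ratios or upper-quartile scaling) and 1 lower. Both shares were near those of all ORFs at any RPKM, 21.6% higher and 7.97% lower. HXT1 and the sensor RGT2 had log2 folds of 1.19 and 1.66, HXT5 was higher (57.8 RPKM starved, 3.60 RPKM growing, log2 fold 3.68) and HXT4 lower (19.2 RPKM starved, 217 RPKM growing, log2 fold -3.43).

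**Figure D5:**
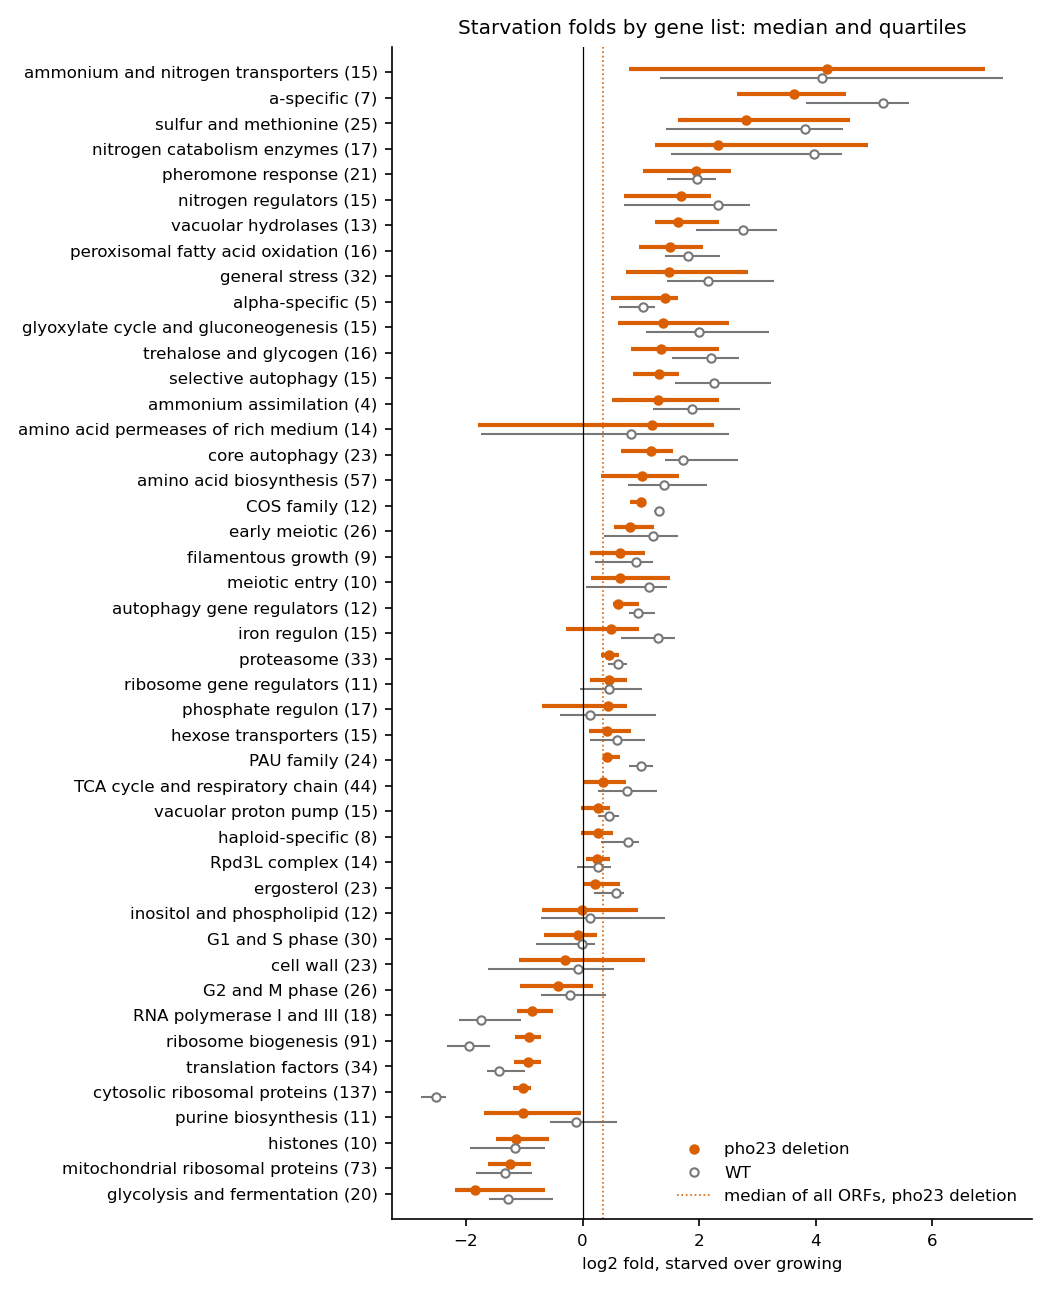
Median (points) and quartiles (lines) of the log2 fold, starved over growing cells (horizontal), of each gene group (rows, number of members in brackets), for the pho23 deletion above WT, with a dotted line at the median of all ORFs in the deletion. Nitrogen transporters have the highest median in the deletion, 4.20, and glycolysis and fermentation the lowest, -1.84.

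Genes of division were lower in part. Of 10 histone genes, 6 were lower and 0 higher, with a median of -1.15, against 6 lower and -1.16 in WT. HTB2, of the core histones, had 164 RPKM in starved and 1067 RPKM in growing deletion cells, a log2 fold of -2.69. HTA2, the gene beside it, had a log2 fold of -2.29, while HTZ1, a histone variant, was at -0.81 and HHO1, the linker histone, at 0.37. Of 30 G1 and S phase genes, 5 were lower (from 3 to 8 under the alternatives) and 0 higher, among them CLB6, an S-phase cyclin (0.680 RPKM starved, 11.98 RPKM growing, log2 fold -2.95), and RNR1, ribonucleotide reductase (9.50 RPKM starved, 69.3 RPKM growing, log2 fold -2.74). Of 26 G2 and M phase genes, 7 were lower (11 with median-of-ratios scaling) and 1 higher, among them CLB1 at -2.31 and CLB2 at -1.14, both mitotic cyclins. The G1 cyclins CLN1, CLN2 and CLN3 had log2 folds of -0.61, -0.11 and 0.31.

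Mating genes were higher in this starved MATα culture. Of 21 pheromone response genes, 16 were higher and 0 lower, with a median of 1.94, and 18 reached an RPKM of 10 in the deletion. AGA1, the anchor of the cell-surface agglutinin, had 120.5 RPKM in starved and 3.82 RPKM in growing deletion cells, a log2 fold of 4.66, against 1264 RPKM in starved and 317 RPKM in growing WT cells, a log2 fold of 1.99. FUS1, of cell fusion, had 65.2 RPKM in starved and 2.38 RPKM in growing deletion cells, a log2 fold of 4.29, against 395 RPKM in starved and 96.1 RPKM in growing WT cells, a log2 fold of 2.03. In each state the deletion's RPKM lay below that of WT in all 21 genes, and for AGA1 and FUS1 by more in growing than in starved cells. For the counts against WT in this paragraph, no count over all ORFs was made. The median RPKM of all ORFs was 44.6 in the starved deletion and 45.7 in starved WT. In growing cells it was 33.3 in the deletion and 29.9 in WT. TGAAACA lay in 11 of the 21 windows, against 7.23% of all. Across all eligible ORFs its share hardly differed with the fold. It lay in 7.36% of the windows of higher ORFs, 6.37% of lower ones and 7.36% of those under 2-fold. The a-specific genes, which a MATα cell represses, were higher in 7 of 7, with a median log2 fold of 3.62, or 1.99 with a pseudocount of 5, when 6 were higher. MFA1, an a-factor gene, had 406 RPKM in starved and 3.51 RPKM in growing deletion cells, a log2 fold of 6.49. STE2, the alpha-factor receptor, had 102 RPKM in starved and 5.63 RPKM in growing deletion cells, a log2 fold of 3.96. In starved cells the 7 ranged down to 8.45 RPKM in ASG7, and MFA2, the other a-factor gene, was at 83.6 RPKM. In the growing deletion all 7 lay under an RPKM of 10, with STE2 the highest of them, and MFA1 in starved cells was still below MF(ALPHA)1 at 2493 RPKM. The alpha-specific genes were higher in 3 of 5, with a median log2 fold of 1.42, and their RPKM lay below that of WT in 5 of 5, in starved and in growing cells alike. MF(ALPHA)2, the second alpha-factor gene, had 175 RPKM in starved and 55.6 RPKM in growing deletion cells, a log2 fold of 1.64, against 4831 RPKM in starved and 1745 RPKM in growing WT cells, a log2 fold of 1.47. SAG1, the alpha-agglutinin, had 151 RPKM in starved and 31.2 RPKM in growing deletion cells, a log2 fold of 2.24, against 1057 RPKM in starved and 682 RPKM in growing WT cells, a log2 fold of 0.63. In WT the median of the a-specific genes was 5.16, above the deletion in 7 of 7. Whether cells of the other mating type were present was not tested. HO, the endonuclease of mating-type switching, was lower, with 3.79 RPKM in starved and 87.4 RPKM in growing deletion cells, a log2 fold of -4.21.

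Early meiotic genes, which Ume6 and Rpd3L repress in dividing haploids, were higher in part. Of 26, 9 were higher (5 with median-of-ratios scaling) and 0 lower, with a median of 0.81, and 20 of them reached an RPKM of 10. In WT 16 were higher and 0 lower. Over all ORFs at any RPKM, 21.6% were higher in the deletion and 31.5% in WT. With median-of-ratios scaling 13.6% of the eligible ORFs were higher in the deletion. GCCGCC lay in 14 of the 26 windows, against 5.22% of all, but among the 23 core autophagy windows in that of ATG8 alone. Early meiotic genes with the motif had the lower median log2 fold, 0.64 against 0.97 for those without it. MND1, of recombination, had 125 RPKM in starved and 30.1 RPKM in growing deletion cells, a log2 fold of 2.02, and HOP1, of the chromosome axis, a log2 fold of 1.51. HOP2, the partner of Mnd1, had 7.43 RPKM in starved and 11.7 RPKM in growing deletion cells, a log2 fold of -0.59, against 24.9 RPKM in starved and 4.09 RPKM in growing WT cells, a log2 fold of 2.35. IME1, the master activator of meiosis, had 21.6 RPKM in starved and 6.63 RPKM in growing deletion cells, a log2 fold of 1.57, against 5.75 RPKM in starved and 5.31 RPKM in growing WT cells, a log2 fold of 0.10.

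The remaining groups ranged from few calls to calls in both directions. Over all ORFs at any RPKM, 21.6% were higher and 7.97% lower in the deletion, and 31.5% and 12.2% in WT. The deletion's shares of higher genes in the phosphate and iron lists were near that of all ORFs. Of 33 proteasome genes, 1 was higher (4 with equal sums) and 0 lower, but 33 of 33 folds were above 0 as deposited, with a median of 0.46, or 0.077 with median-of-ratios scaling. Ergosterol synthesis had 1 of 23 lower, ERG3 (192 RPKM starved, 446 RPKM growing, log2 fold -1.21), and 0 higher (2 with equal sums). Of 17 phosphate genes, 4 were higher and 3 lower (6 under median of ratios), with PHO5, the secreted phosphatase, at -1.74 and the transporter PHO84 at -1.26. The iron regulon had 3 of 15 higher (from 1 to 5 under the alternatives) and 2 lower, against 11 higher and 1 lower in WT, with FRE1, a reductase of iron and copper, lowest in the deletion (11.8 RPKM starved, 67.7 RPKM growing, log2 fold -2.43). Cell wall genes split, 7 of 23 higher and 7 lower (4 with equal sums), from PIR3 at 2.88 to TIP1 at -3.10. Of 12 COS genes, 8 were higher, but 3 with a pseudocount of 5 and 1 with median-of-ratios or upper-quartile scaling, and these near-identical subtelomeric copies may share reads.

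Among ORFs in none of these groups, SPG4, known from stationary phase, had the third highest fold of all, with 1766 RPKM in starved and 8.13 RPKM in growing deletion cells, a log2 fold of 7.60. LEE1, a zinc-finger protein of unknown function, had 575 RPKM in starved and 5.63 RPKM in growing deletion cells, a log2 fold of 6.44, and NIT1, a nitrilase, had 887 RPKM in starved and 14.7 RPKM in growing deletion cells, a log2 fold of 5.82. YKR033C, at a log2 fold of 7.44, is not in the annotation used here, so overlap with a neighbour could not be checked and the source of its reads is uncertain. On the lower side, DBP2, an RNA helicase, had the lowest fold of all, with 11.6 RPKM in starved and 532 RPKM in growing deletion cells, a log2 fold of -5.40. IZH4, a membrane protein linked to zinc, had 1.35 RPKM in starved and 68.5 RPKM in growing deletion cells, a log2 fold of -4.89. INA1, a membrane protein of unknown function, had 4.86 RPKM in starved and 168 RPKM in growing deletion cells, a log2 fold of -4.85. OLE1 encodes the fatty acid desaturase and had 264 RPKM in starved and 1931 RPKM in growing deletion cells, a log2 fold of -2.87. ASC1, a ribosome-bound signalling protein, had 441 RPKM in starved and 3388 RPKM in growing deletion cells, a log2 fold of -2.94, against a log2 fold of -4.27 in WT.

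Set beside WT as a whole and with the deposited values, starvation in the deletion called fewer ORFs, and most of them were called in WT too. Of the 1311 higher ORFs 1199 were also higher in WT, which is 91.5% of the deletion's list and 61.5% of the 1950 of WT. Of the 514 lower ORFs 442 were shared, 86.0% of the deletion's list and 55.6% of the 795 of WT. Those WT lists are 32.7% and 13.3% of the 5956 ORFs eligible there. Across 5785 ORFs eligible in both, the folds had a Pearson correlation of 0.92 and a Spearman correlation of 0.93, a description across genes whose values share libraries. Among ORFs called in both genotypes, the deletion's fold was the smaller in 983 of 1199 higher ones and the nearer to 0 in 341 of 442 lower ones. The WT calls and these counts were not repeated under other scalings. The median fold of eligible ORFs was 0.34 in the deletion and 0.53 in WT, and a shift of this centre would move the counts. The deletion's fold exceeded that of WT by at least 1 on the log2 scale in 318 of 6034 ORFs and fell short of it by at least 1 in 329. The balance turned with scaling, to 419 and 212 with median of ratios of the 4 libraries and 258 and 488 with equal sums, and no test of these differences is possible.

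Among the 10 largest differences between the folds of both genotypes on either side, none of them tested, were the following. DIA1, linked to invasive growth, had 89.7 RPKM in starved and 6.41 RPKM in growing deletion cells, a log2 fold of 3.61, against 84.02 RPKM in starved and 52.95 RPKM in growing WT cells, a log2 fold of 0.66, and the overlapping YMR316C-A moved with it, so that the source of the reads is uncertain. PTR2, the peptide transporter, was lower in both genotypes, with 8.46 RPKM in starved and 27.1 RPKM in growing deletion cells, a log2 fold of -1.57, against 2.24 RPKM in starved and 62.3 RPKM in growing WT cells, a log2 fold of -4.29. AGA1 and FUS1, given above, were also among them. Among ribosomal protein genes RPS26B, RPS3 and RPL9A differed most, with log2 folds of -1.02, -0.93 and -1.84 in the deletion and -3.33, -3.06 and -3.90 in WT. At the other end YMR242W-A differed most, with log2 folds of -2.23 in the deletion and 1.85 in WT, at about 2 reads in the starved deletion. It lay under an RPKM of 10 in both deletion libraries. HOP2, given above, came next. SNO4, HSP33 and HSP32, chaperone-like genes that are near-identical copies and so uncertain, had 4.23, 4.23 and 4.30 RPKM in the starved deletion, against 36.9, 37.4 and 37.5 RPKM in starved WT, and lay under an RPKM of 1 in growing cells of both genotypes. FMP23, a mitochondrial protein, had 231 RPKM in starved and 76.2 RPKM in growing deletion cells, a log2 fold of 1.58, against 249 RPKM in starved and 13.3 RPKM in growing WT cells, a log2 fold of 4.12. The starved levels of FMP23 were close, and the growing ones apart.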

How the data were processed

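Total RNA of 4 libraries was sequenced, and the authors deposited RPKM per ORF in a single table. Per the submitters' processing notes, CASAVA 1.8.2 and Bowtie2 2.1.0 were used with the build sacCer3. How reads were counted, on which annotation and with or without strand is not given in the sources used here. Overlapping ORFs, antisense ORFs and near-identical copies are therefore uncertain. Symbols, positions and promoter windows came from RefSeq R64, which holds 5997 of the 6678 ORFs. The other 681 keep the deposited name.

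Folds were log2 differences of the deposited RPKM with a pseudocount of 1, and calls were at 2-fold. Read numbers were estimated from the smallest common step of RPKM times length. Since low values include fractions of that step, the depths of 21800000 reads in the starved and 27500000 in the growing deletion are rough, and 95% intervals built on them cover counting error only. Gene groups were counted at any RPKM, with all members kept. The groups and lists were chosen with earlier results of these data known, and some spellings and members were corrected against the table after it was read. The rule for named ORFs took the 20 highest and 20 lowest folds, the largest differences between genotypes, all members of lists of up to 25, the 6 largest folds of longer lists, and the ORFs nearest the RPKM limit. MOH1, GUD1, UBI4, AIM6, SPO14, HIS4, LYS20, ASN2, SER2, HSP104, YGP1, HAS1, TEF1, CLB2 and CLN1 to CLN3 were named after their values were seen. The alternatives tried were a pseudocount of 0.1 or 5, no limit on RPKM or a limit of 30, and 3 scalings (median of ratios, equal sums, upper quartile). The steps were tested on simulated data. Python 3.11.15, numpy 2.4.6, pandas 2.3.3 and matplotlib 3.10.9 were used.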

Additional observations from a re-analysis of the deposited data

Results flagged for a closer look

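YMR242W-A, an ORF of 90 bases on chromosome XIII, was the one ORF with an RPKM of at least 10 in any library that moved by at least 2-fold in opposite directions in the 2 genotypes. It had 1.02 RPKM in the starved and 8.49 RPKM in the growing deletion, a log2 fold of -2.23, against 11.3 RPKM in starved and 2.42 RPKM in growing WT, a log2 fold of 1.85. Only starved WT reached the limit of 10, so this ORF was not eligible for the comparison within the deletion. About 2 reads lay behind the starved and 21 behind the growing deletion value, and the ratio of 0.120 has a 95% counting interval of 0.0136 to 0.490. Reads behind its WT values were not estimated. The difference between genotypes was not tested.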

How the results depend on the processing

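No paired analysis was possible because each group has 1 library. The counts of higher and lower ORFs, 1311 and 514, became 799 and 970 with median-of-ratios scaling, 1030 and 750 with upper-quartile scaling and 1583 and 365 with equal sums, and stayed between 1009 and 1441 higher and between 468 and 532 lower under the other pseudocounts and RPKM limits. With median-of-ratios scaling, 12 gene lists had a median at least 2-fold higher, against 19 as deposited, and 8 at least 2-fold lower, against 5. Upper-quartile scaling also gave 8 lower and equal sums gave 2. The ORFs whose deletion fold fell short of that of WT by at least 1 numbered 329, and 212 with median-of-ratios scaling. Medians close to 0 turned sign: with median-of-ratios scaling the vacuolar proton pump (-0.11), Rpd3L (-0.11), the TCA cycle and respiratory chain (-0.035), ergosterol (-0.16) and haploid-specific genes (-0.11), and with equal sums the inositol and phospholipid genes (0.16) and G1 and S phase genes (0.062). Ribosomal protein genes lower numbered 77, or 133 under median of ratios and 37 under equal sums. Of 338 named ORFs called at 2-fold, 57 fell under it with median-of-ratios scaling, 35 with upper-quartile scaling, 32 with a pseudocount of 5 and 12 with equal sums, and 0 changed direction. The cause was not tested. Without replicates, depth sets only the counting error, which is small beside most folds named here but wide for ORFs near 0 in growing cells.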

Other observations

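Single genes of metal and nucleotide metabolism, chosen after their values were seen and all but FRE1 outside the lists, are given here. The copper metallothioneins were the most abundant ORFs of the starved deletion. CUP1-2 had 17049 RPKM in starved and 388 RPKM in growing deletion cells, a log2 fold of 5.46, and CUP1-1 had 11964 RPKM in starved and 289 RPKM in growing deletion cells, a log2 fold of 5.37. Their log2 folds in WT were 3.76 and 3.65. They are near-identical copies, so the split between them is uncertain. CRS5, a further metallothionein, had 221 RPKM in starved and 12.9 RPKM in growing deletion cells, a log2 fold of 4.00. CTR1, the high-affinity copper transporter, was lower, with 16.3 RPKM in starved and 134 RPKM in growing deletion cells, a log2 fold of -2.96, as was FRE1, the reductase that serves it and the lowest of the iron regulon, at -2.43. CUP2, the activator of the CUP1 genes, had a log2 fold of 1.28.

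The genes of pyrimidine and guanine nucleotide synthesis shown here went in both directions, and neither route was counted as a whole. URA1, the dihydroorotate dehydrogenase, had 183 RPKM in starved and 1302 RPKM in growing deletion cells, a log2 fold of -2.82. URA4, the dihydroorotase, had 85.99 RPKM in starved and 477 RPKM in growing deletion cells, a log2 fold of -2.46. IMD4, an inosine monophosphate dehydrogenase, had 85.7 RPKM in starved and 457 RPKM in growing deletion cells, a log2 fold of -2.40, and IMD3, a close copy of it, a log2 fold of -2.05. URA2, the first enzyme of pyrimidine synthesis, had a log2 fold of 0.85, and URA10, a minor isozyme of URA5, was higher, with 137 RPKM in starved and 16.9 RPKM in growing deletion cells, a log2 fold of 2.95, while URA5 was at -0.75. MTD1, an enzyme of one-carbon units, had 128 RPKM in starved and 720.2 RPKM in growing deletion cells, a log2 fold of -2.48, against 288 RPKM in starved and 419 RPKM in growing WT cells, a log2 fold of -0.54.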
